A study of Mus musculus with 6 samples.

Results

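Of the 55681 non-control probes on the array, 16181 were named not for a gene but for a stretch of the mouse genome. Their systematic name in the scanner output is a chromosome, a start, an end and a strand letter, F or R, in build mm9. All such probes were taken, whatever their signal, and they are called region probes here. A further 13 probes with a chromosome name but no strand letter were left out. The region probes covered 3540 intervals on 20 chromosomes, of which 1067 had probes of both letters, 1251 had F probes only and 1222 had R probes only. There were 8171 F and 8010 R probes, with a median of 3 and at most 20 probes per interval. The median interval was 7.32 kb long (quartiles 0.787 and 21.8 kb), the shortest measured 62 bases and the longest 7128 kb. Intervals were not all separate loci, since 2101 of the 3540 overlapped at least 1 other interval.

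The RNA came from kidneys of male C57BL/6 mice aged 2 months or 20 months, with 3 samples per age, and neither age carried a transgene or a treatment according to the labels. Each sample was total RNA on 1 single-colour (Cy3) Agilent array. The 3 RNA preparations per age are called independent in the labels, without a statement that separate mice were used, so the p-values measure the spread between these preparations. The comparison asks how signal over such regions differs between young and aging kidney.

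Long intergenic noncoding RNAs (lincRNAs) are spliced, often polyadenylated transcripts from DNA between protein-coding genes. Some act in the nucleus by guiding or tethering chromatin regulators, others in the cytoplasm as scaffolds or microRNA sponges, and most have no known role. As a class they are less abundant and more restricted to particular tissues and cell types than messenger RNAs. Arrays of this generation carried probes for candidate lincRNA regions, placed on both strands where the direction of transcription was unknown. The files give the interval and the letter alone, so whether an interval is intergenic in a current annotation, or gives rise to a lincRNA, was not tested. The cDNA was labelled with Klenow enzyme from random nonamers, a step that can label either strand, so a signal on an F or R probe does not by itself fix the strand of the transcript.

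Region probes were dim and were detected less often than the rest of the array. In the 2-month samples 1, 2 and 3, 63.4%, 57.5% and 37.2% of region probes were well above background by the scanner software's flag. In the 20-month samples 1, 2 and 3 the shares were 47.9%, 37.4% and 25.1%. The ages overlapped, because the third 2-month sample lay below the first and second 20-month samples. The mean was 52.7% ± 13.7 (SD, n = 3) at 2 months and 36.8% ± 11.4 (SD, n = 3) at 20 months, a difference of -15.9 percentage points. A two-sided exact permutation test gave p = 0.3, where 0.1 is the smallest p that 3 against 3 samples allow. All other probes were well above background in 76.7%, 73.6% and 62.7% of cases on the 2-month arrays and in 69.0%, 63.2% and 54.9% on the 20-month arrays, a difference of -8.66 points (exact permutation p = 0.3). The gap between region probes and other probes widened by -7.24 points at 20 months (exact permutation p = 0.2). The lowest processed signal that counted as well above background was 32.6, 36.1 and 63.9 at 2 months and 42.6, 93.4 and 110 at 20 months. This limit comes from the same flag as the shares. It was lowest on the array with the most detected region probes and highest on the array with the fewest. The order was not strict, since 2-month sample 3 had a lower limit than 20-month sample 2 at a similar share. The part of that limit in the age difference was not tested.

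All 6 arrays lay on 1 slide, with the 2-month samples in slide row 1 and the 20-month samples in row 2, so slide row cannot be told apart from age. The replicate number is also the slide column. Within columns 1, 2 and 3 the 20-month minus 2-month difference in detected region probes was -15.5, -20.1 and -12.1 points, lower at 20 months in each (exact sign-flip p = 0.25, the smallest possible with 3 pairs). Over the region probes detected everywhere, arrays of 1 age correlated at r = 0.988 to 0.992 (2 months) and 0.979 to 0.984 (20 months), and arrays of different ages at 0.973 to 0.989.

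Of the 16181 region probes, 5449 were not well above background on any array and 3925 were on all 6. The test took probes whose signal passed that flag in all 3 samples of either age, leaving 6004 region probes (37.1%) in 2107 intervals and 24821 of the 39500 other probes (62.8%). The filter leaned towards the young arrays. Of the 6004, 2037 passed only through the 2-month samples and 32 only through the 20-month samples. A probe that passed through 1 age only was chosen for being high there, so the counts below describe the tested probes and not the whole class.

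At 20 months 31 region probes were higher and 21 lower, 52 of the 6004 tested (0.866%) at a Benjamini-Hochberg adjusted p under 0.05 by limma, against 2.16% of all 30825 tested probes on the array. The background was 1.49% of all tested probes for a rise and 0.668% for a fall, against 0.516% and 0.35% of the region probes. Among the other probes 614 passed (2.47%), 429 higher and 185 lower. The 2 ages did not overlap at any of the 52 probes, while non-overlap alone was common, with 1167 of the tested region probes (19.4%) and 20.9% of all tested probes. Of the 6004 tested region probes, 1089 had an unadjusted limma p under 0.05. The matching count over all tested probes was not computed, so this number is a description only. A change of at least 2-fold was reached by 30 of the 52, of which 21 were higher and 9 lower (0.5% of tested region probes, against 1.53% of all tested probes). Under centring on each array's median in place of its 75th percentile, 118 region probes passed (1.97%, against 2.94% of all tested probes). Of these 41 were higher and 77 lower, so the balance of rises and falls depends on the scaling. Leaving out single arrays moved the count further: it was 557 (50 higher, 507 lower) without 20-month replicate 1, where region probes had the larger share (9.28%, against 6.62% of all tested probes). It was 47 without 20-month replicate 3 and 31 without 20-month replicate 2 (0.735% and 0.514%, against 1.84% and 1.16% of all tested probes). It was 21, 20 and 12 without 2-month replicates 1, 2 and 3 (0.35%, 0.333% and 0.131%, against 1.08%, 1.14% and 0.506%). The filter was applied anew in each of these fits, so the number of tested probes differed between them. With the slide column, which is the replicate number, as a block, 37 region probes passed (24 higher, 13 lower). They were 0.616% of the tested region probes, against 1.51% of all tested probes. Of the 52 probes 27 kept their call, 21 of the rises and 6 of the falls.

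The smaller share of called region probes was also seen within bins of signal with all 6 arrays. Probes were split by mean normalised log2 signal into 8 bins, 1 unit wide except for the lowest and the highest. Those were open-ended, so signal was not closely matched within them. Region probes had a smaller share of called probes than the other probes in each of the 8 bins. The shares were 1.31% of 1222 against 5.28% of 2309 between -4 and -3, for example. Between -2 and -1 they were 0.77% of 649 against 4.07% of 2504. The median standard error of a change was 0.18 for tested region probes and 0.15 for the others. The direction of the class as a whole depended on the filter. The median change was -0.17 on the log2 scale over the tested region probes and -0.03 over the other tested probes, and 72.2% of the former and 56.4% of the latter were below 0. Over probes detected on all 6 arrays the medians were -0.08 and -0.01. Over all probes with no filter they were above 0, at 0.07 for region probes and 0.05 for the others. Per sample, the median of region probes minus that of other probes was -2.47, -2.54 and -2.70 at 2 months and -2.60, -2.74 and -2.90 at 20 months. The ages overlapped, and the difference of -0.17 had an exact permutation p of 0.2. Within slide columns it was -0.13, -0.20 and -0.19. With no filter the difference was -0.14 (exact permutation p = 0.6), and within columns it was -0.29, -0.52 and 0.39, so it changed sign in column 3. In bulk tissue, fewer cells of a type and less RNA per cell cannot be told apart, here and in every result that follows.

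The 52 probes fell in 35 intervals, of which 17 held rises, 18 held falls and 0 held both. In 29 of the 35 more than 1 probe was tested, and in 23 of those all tested probes changed in the same direction. The called probe is part of that count, and 72.2% of all tested region probes were below 0. The share over intervals without a call was not computed, so the count is a description only. Interval length differed little, with a median of 10.8 kb for called probes and 11.03 kb for tested ones. The strand letters contributed 23 of 3034 tested F probes and 29 of 2970 tested R probes. Chromosome 1 held 12 called probes of 459 tested (10 higher), chromosome 14 held 7 of 289 (all higher), chromosomes 6 and 8 held 6 each, of 438 and 368 tested. Of the 31 rises 23 were well above background on all 6 arrays, and of the 21 falls 1 was. A fall itself lowers a probe towards the detection limit on the aged arrays, so these counts do not compare the directions.

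In chr14:43929100-43945100 (mm9), 16.001 kb long, all 6 probes of the array were tested and all 6 were called as rises, 1 F and 5 R. Each was well above background on all 6 arrays. The largest change was at R probe A_30_P01032534, whose normalised log2 signal (relative to the array's 75th percentile) was -3.74, -3.49 and -3.78 at 2 months and -1.30, -0.67 and -1.07 at 20 months. Every aged sample lay more than 2 units above every young one. The change was 2.65 ± 0.18 (SE), or 6.29-fold, with a limma adjusted p of 0.000799. The F probe A_30_P01024482 went from -2.36, -2.0 and -2.23 to -0.80, -0.31 and -0.80, a change of 1.56 ± 0.18 (limma adjusted p = 0.00589). The remaining R probes rose by 2.25, 1.75, 1.08 and 1.01. The interval therefore gave 6 separate oligonucleotides on both strand letters with the same direction and non-overlapping ages, although they share the arrays and are not independent samples. A_30_P01032534 and A_30_P01028386 kept their call with any 1 array left out. The 1.75 and the F probe lost theirs without 2-month replicate 3 (adjusted p = 0.074 and 0.087 by limma), and the 1.08 and 1.01 lost theirs in several such fits, where the adjusted p reached 0.139 and 0.136.

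A group of neighbouring intervals rose near 85 Mb of chromosome 1, in the stretch chr1:85036677-85167730 (mm9). In chr1:85117750-85129200, 11.45 kb long with 5 F and 5 R probes, 5 probes were tested and 4 rose. F probe A_30_P01027577 read -4.87, -5.04 and -5.59 at 2 months and -2.59, -2.73 and -2.79 at 20 months, a change of 2.46 ± 0.20 or 5.50-fold (limma adjusted p = 0.00145). The second F probe rose by 2.56 and 2 R probes by 2.33 and 1.91, while a further R probe did not pass (-0.28 ± 0.37, adjusted p = 0.756). Every one of the 4 was well above background on all 3 aged arrays and on only 2 of the young ones, so the young level is near the detection limit. All 4 entered the test only through the 20-month samples, the age where they are high. They were not tested where detection on all 6 arrays was required. The F probes kept their calls with any 1 array left out, and the R probes lost theirs in several such fits, with adjusted p up to 0.161 and 0.108.

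The intervals beside it held 1 called R probe each. At chr1:85036677-85038530 it rose by 0.78 ± 0.14 (limma adjusted p = 0.0400), with an uncalled second probe at 0.82. At chr1:85156338-85167730 it went from -3.00, -2.67 and -2.72 to -1.19, -1.69 and -1.86, a change of 1.22 ± 0.20 (limma adjusted p = 0.0270), while the other tested R probe stayed at -0.03. These single calls were lost in most fits that left out 1 array (adjusted p up to 0.192 and 0.172) and with the slide column as a block. Within 200 kb on either side of the group the array had 10 intervals and 43 probes, of which 17 were tested, 12 were above 0 and 6 were called, with a median change of 0.78. That window also held values below 0: in the overlapping interval chr1:84947500-85045150 the F probes stood at 0.81 and 0.77 and the R probes at -0.40 and -0.79, none of them past the threshold.

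Chromosome 1 also gave the largest single-probe rises, each in an interval where no other probe was tested. F probe A_30_P01031656 in chr1:122655019-122660142 (5.12 kb) read -4.18, -4.12 and -4.21 at 2 months and -1.33, -0.58 and -1.71 at 20 months. The young values lay within 0.1 of each other and the aged ones spread over more than 1 unit, all above the young. The change was 2.96 ± 0.27, or 7.79-fold (limma adjusted p = 0.00243). F probe A_30_P01018159 in chr1:167218236-167218418, an interval of 0.183 kb, went from -3.67, -3.32 and -3.47 to -0.70, -0.11 and -1.06, a change of 2.87 ± 0.24 (limma adjusted p = 0.00189). R probe A_30_P01024880 in chr1:171402829-171403289 (0.461 kb) had the smallest p of all region probes. It read -6.15, -5.97 and -5.95 at 2 months, where 2 of 3 arrays were well above background, and -2.91, -3.08 and -3.18 at 20 months. It entered the test only through the 20-month samples, the age where it is high. Where detection on all 6 arrays was required it was not tested. Its change was 2.96 ± 0.13 (limma adjusted p = 1.0e-04). These 3 probes kept their calls with any 1 array left out, with adjusted p of at most 0.049.

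Further rises came from brighter or isolated probes. In chr6:108556270-108573161 (16.9 kb), 11 probes were tested, 10 were above 0 and 6 were called, with changes from 0.69 to 0.92 on both letters. The 1 tested probe below 0 was an R probe at -0.53 (adjusted p = 0.34). F probe A_30_P01029671 there read 0.39, 0.42 and 0.40 at 2 months and 1.21, 1.35 and 1.25 at 20 months, a change of 0.86 ± 0.11 (limma adjusted p = 0.00837). Samples of 1 age differed by less than 0.2 and the ages stood apart. Its call was lost without any 1 of the 2-month replicates (adjusted p up to 0.10), and the other 5 calls of the interval were lost in 5 of the 6 such fits and with the slide column as a block. In chr8:93337794-93348869 all 4 tested probes were above 0, and 2 R probes were called at 1.27 and 1.26. These calls were lost in 5 and 4 of the 6 fits that left out 1 array (adjusted p up to 0.175 and 0.192), under quantile normalization and under normexp. R probe A_30_P01026324 in chr4:149383134-149451259 rose from -4.04, -3.96 and -4.33 to -2.90, -2.77 and -2.82 (1.28 ± 0.13, limma adjusted p = 0.00460), although the other 7 of the 8 tested probes in that 68.1 kb interval were below 0.

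The remaining 6 rising intervals held 1 called probe each. The F probe in chr17:29378878-29379589 went from -5.81, -5.31 and -5.43 to -2.54, -3.99 and -3.58, a change of 2.15 ± 0.35 (limma adjusted p = 0.0293). The R probe in chr11:53592946-53637922 went from -5.43, -5.89 and -5.75 to -3.36, -4.36 and -3.34, a change of 2.003 ± 0.29 (limma adjusted p = 0.0179). Both were well above background on 2 of the 3 young arrays. They entered the test only through the 20-month samples, the age where they are high. Their aged values spread over 1 unit or more. Other tested probes at the chromosome 11 interval lay on both sides of 0, with an interval median of 0.04. Smaller rises of 1.15, 0.97, 0.76 and 0.73 were seen in chr4:101010948-101032148, chr12:19409800-19420825, chr13:3497296-3500441 and chr14:77511189-77522852. In these 4 intervals every tested probe was above 0, including all 10 in the last. Each of the 6 calls was lost in at least 3 of the 6 fits that left out 1 array, with adjusted p up to 0.23, and those on chromosomes 13, 14 and 17 also with the slide column as a block.

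Most called falls were not well above background on all 6 arrays, so their size was not compared with that of the rises. The only called fall with signal well above background on all 6 arrays was F probe A_30_P01018195 in chr8:74439200-74441363 (2.16 kb). It read -2.17, -2.0 and -1.92 at 2 months and -2.77, -2.79 and -2.98 at 20 months, a change of -0.82 ± 0.13 (limma adjusted p = 0.0220). The groups stood about 0.6 apart, and the second tested probe of the interval stood at -0.61. The call was lost in 5 of the 6 fits that left out 1 array, with adjusted p up to 0.170, and with the slide column as a block. A larger fall was seen by F probe A_30_P01019161 in chr10:62262341-62269593 (7.25 kb), from -2.52, -2.52 and -2.55 to -4.02, -3.76 and -3.98. Its change of -1.39 ± 0.12 (limma adjusted p = 0.00194) kept its call with any 1 array left out. It was well above background on 2 of the 3 aged arrays and entered the test only through the 2-month samples, where it is high. The other tested probes of the interval stood at -0.57 and -0.52, neither of them called.

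The fall with the most called probes was at chr8:67542714-67561694 (18.98 kb), where 11 of the 15 probes were tested and all 11 were below 0. R probes A_30_P01021909 and A_30_P01031622 were called, at -1.54 and -1.33. A called R probe beside them, A_30_P01030765, was not well above background on any aged array. It has only an approximate bound, of 1.90-fold lower at 20 months. A_30_P01021909 went from -3.56, -3.65 and -4.11 to -5.26, -5.19 and -5.49, with a limma adjusted p of 0.00604. The 6 tested F probes, 5 of them bright, ranged from -1.07 to -0.46 and none passed alone. Averaging the tested probes of 1 interval and letter, a step chosen after the values were seen and run without that probe, gave -1.24 ± 0.18 for the other 4 tested R probes (limma adjusted p = 0.0151) and -0.75 ± 0.14 for the F probes (limma adjusted p = 0.0358). A_30_P01021909 kept its call with any 1 array left out and lost it under normexp background correction, where the change shrank to -0.87. A_30_P01031622 lost its call in 4 of the 6 fits that left out 1 array, with adjusted p up to 0.074.

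Further falls lay in intervals where all or most tested probes were below 0, as were 72.2% of all tested region probes. In chr19:44651106-44657612 (6.51 kb) all 7 tested probes were below 0, and 1 F probe (-0.80) and 1 R probe (-1.26) were called. On chromosome X, the overlapping intervals chrX:135880775-135891525 and chrX:135882029-135892277 had 10 tested probes, all below 0 with a median of -0.67, and 1 called R probe in each (-0.82 and -0.78). The calls in these 3 intervals were lost in at least 3 of the 6 fits that left out 1 array, under normexp and with the slide column as a block. In chr15:5969454-5994540, 11 of 12 tested probes were below 0 and 1 F probe was called, at -0.89, a call lost in 5 of the 6 fits that left out 1 array (adjusted p up to 0.158), under normexp and with the slide column as a block. The largest called fall was F probe A_30_P01032926 in chr3:108763862-108772151, at -1.78 ± 0.24 (limma adjusted p = 0.0127), where all 8 tested probes were below 0. It was lost in 4 of the 6 fits that left out 1 array, with adjusted p up to 0.125. The remaining 8 falling intervals of the 18, on chromosomes 1, 2, 3, 5, 11, 12 and 19, held 1 called probe each, with changes between -1.17 and -0.62. In all 8 every tested probe was below 0. Each of the 8 calls was lost in 4 or 5 of the 6 fits that left out 1 array (adjusted p up to 0.221) and under normexp, and 7 were lost with the slide column as a block. The call on chromosome 2 passed in 2 of 17 alternatives and was lost in the authors' table.

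Some probes were measurable at 1 age only. Signal was well above background on all 3 young and 0 aged arrays at 40 region probes. The reverse, all 3 aged and 0 young arrays, held at 0 probes. Mean detection was also lower on the aged arrays, with overlap between the ages. For such a probe the fold is an approximate bound. It was taken against the lowest signal well above background on each aged array, or the probe's own signal where that was higher. The flag also failed at brighter signals, so the bound is not a strict minimum. R probe A_30_P01018854 read -3.64, -3.97 and -3.85 at 20 months and passed the flag on 2 of those 3 arrays. The lowest passing signals there were -6.59, -5.34 and -4.45. The bound exceeded 1 for 24 of the 40, and 3 were called. These were A_30_P01030765 in the chromosome 8 interval above, with its bound of 1.90-fold (limma adjusted p = 0.00850), A_30_P01022376 in chr12:82457625-82476325, with a bound of 1.39-fold (limma adjusted p = 0.0354), and A_30_P01030556 in chr10:76114741-76115073, with a bound of 1.14-fold (limma adjusted p = 0.0352). The first kept its call with any 1 array left out and lost it under normexp and quantile normalization. The chromosome 12 and 10 probes lost theirs in 3 and 5 of the 6 such fits (adjusted p up to 0.188 and 0.177), under normexp and with the slide column as a block.

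F and R probes of the same interval were compared through the brightest probe of each letter. Among the 1067 intervals with both, both probes were well above background on all 6 arrays in 361 and neither was on any array in 29. One letter was detected on all 6 arrays and the other on none in 17 intervals with F detected and in 10 with R detected. Both probes were tested in 587 intervals, F alone in 139, R alone in 157 and neither in 184. The changes of the F and R probes had the same sign in 391 of the 587 (66.6%). Since 72.2% of all tested region probes were below 0, unrelated probes would also often share a sign. The share given by that shift alone was not computed, so the same-sign count does not by itself show that the letters changed together. The F and R changes correlated across intervals at Pearson r = 0.335 and Spearman rho = 0.311, a description over intervals that share the 6 arrays. Pairs of probes with the same letter in 1 interval correlated at 0.477 (n = 1176) and pairs of opposite letters at 0.346 (n = 597). The median absolute difference in change was 0.19 for same-letter pairs and 0.25 for opposite-letter pairs.

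Both brightest probes were called in 2 intervals, chr14:43929100-43945100 and chr1:85117750-85129200, with the same direction in each, and in 0 intervals with opposite directions. The chromosome 1 pair rose by 2.46 (F) and 1.91 (R) and the chromosome 14 pair by 1.56 (F) and 1.08 (R). With any tested probe of a letter in place of the brightest, 4 intervals had calls on both letters, 16 on F alone and 15 on R alone. A call on 1 letter alone does not show that the letters differed, and that difference was tested directly.

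The F minus R difference within an array needs no scaling between arrays. It changed with age in 2 of 587 intervals (0.341%) by limma with Benjamini-Hochberg adjustment, and 57 had an unadjusted p under 0.05. In chr1:87343550-87362900 (19.4 kb) the difference was -2.41, -2.38 and -2.83 at 2 months and -0.28, -0.43 and -0.10 at 20 months. It increased by 2.27 ± 0.19 (limma adjusted p = 0.00213), with wide separation of the ages. The F probe A_30_P01027120 rose by 2.60 ± 0.18 (limma adjusted p = 0.000786), from -4.84, -4.87 and -5.37 to -2.27, -2.40 and -2.60. The R probe A_30_P01033235 read -2.43, -2.49 and -2.54 and then -1.99, -1.97 and -2.50, a change of 0.33 ± 0.16 that did not pass (adjusted p = 0.380). Of the 3 F and 5 R probes of this interval, 1 of each letter was tested, so the asymmetry rests on 1 oligonucleotide per letter. The F probe was well above background on 2 of the 3 young arrays and entered the test through the 20-month samples, the age where it is high. The interval was therefore not tested where detection on all 6 arrays was required, and 0 of 361 differences passed there. It was lost without 2-month replicate 3 (2.12, limma adjusted p = 0.064).

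In chr8:128933150-128943375 the F minus R difference went from 1.39, 1.16 and 1.00 to 2.30, 2.92 and 2.87, an increase of 1.51 ± 0.22 (limma adjusted p = 0.0474). Neither probe passed alone. The F probe stood at 0.83 ± 0.17 (adjusted p = 0.0613 by limma) and the R probe at -0.68 ± 0.22 (adjusted p = 0.213). That R probe was well above background on 5 of the 6 arrays. This result passed in 3 of 15 alternatives. It was lost without each array in turn except 20-month replicate 1, with adjusted p up to 0.669 by limma, and the mean of all tested probes per letter gave a difference of 0.98 (limma adjusted p = 0.317).

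The brightest region probes did not pass the test. F probe A_30_P01031448 in chr14:78924115-78938125 had the highest mean signal of the region probes, with processed signals of 195257, 163402 and 139892 at 2 months and 186063, 184736 and 159436 at 20 months. Its change after scaling was 0.10 ± 0.17 (limma adjusted p = 0.818) and the ages overlapped. The next in brightness were F probes in chr7:82902248-82955248, chr2:143963320-143984245 and chrX:33750475-33770425 and an R probe in chr17:26679595-26688270, with changes of 0.23, 0.16, -0.01 and 0.08.

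Genes with the most similar pattern over the 6 samples were sought among 14524 tested gene symbols. For the rise at chr1:122655019-122660142 (A_30_P01031656) these were H2-M3, a nonclassical MHC class I gene (Pearson r = 0.999), Ugt2a3, a glucuronosyltransferase (r = 0.995), and Cxcl13, the B cell chemokine (r = 0.994). Cxcl13 itself rose by 2.99 ± 0.28 and Ugt2a3 by 1.57 ± 0.20 (limma adjusted p = 0.00273 and 0.0104), while H2-M3 stood at 0.52 ± 0.11 and did not pass. For the fall at chr8:74439200-74441363 (A_30_P01018195) they were Corin, the protease that activates atrial natriuretic peptide (r = 0.996), Chchd3, of the mitochondrial inner membrane (r = 0.995), and Atp6v1h, a proton pump subunit (r = 0.995). Corin fell by 1.58 on the log2 scale (limma adjusted p = 0.00508), and the other two did not pass. With 3 samples at each of 2 ages, such correlations largely follow the age difference itself and are a description only.

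Noncoding RNA genes known by name are set beside the region probes. Of a list of 55 such genes 27 were on the array, 22 were tested, and 1 rose and 1 fell (2.16% of all tested probes passed), with a median change of -0.03 against -0.05 over all tested probes. Lockd, a noncoding RNA downstream of Cdkn1b, read -0.10, -0.14 and 0.07 at 2 months and -0.90, -0.90 and -1.24 at 20 months (-0.96 ± 0.14, limma adjusted p = 0.0184). The probe for Mir124-2hg, a microRNA host gene, was above background on all 3 aged arrays and no young array. Neat1, the scaffold of paraspeckles, stood at -0.48 ± 0.17, Peg13, an imprinted noncoding RNA, at 0.53 ± 0.16 and Malat1, a nuclear speckle RNA, at -0.13 ± 0.29, none of them past the threshold.

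Kidney markers were detected, and several marker lists moved with age. All 10 proximal tubule, all 7 loop of Henle and all 6 podocyte markers were well above background on all 6 arrays. So were 10 of 11 distal tubule and collecting duct markers, 4 of 6 liver markers and 0 of 4 testis markers. Detection alone therefore does not set kidney apart from the liver list. No tested distal tubule and collecting duct, liver or testis marker passed. Over all tested probes 1.49% rose and 0.668% fell, with a median change of -0.05. Of the B and plasma cell markers 4 of 7 tested rose (median 1.38), with list medians of -2.43 to -2.20 on the young and -0.86 to -0.38 on the aged arrays. Of the T cell markers 2 of 9 rose (median 0.84, from -2.81 to -2.41 on the young to -1.77 to -1.48 on the aged), and of the macrophage and dendritic markers 2 of 8 (median 0.58). Of the adipocyte markers 1 of 6 rose (median 1.499, from -1.57 to 0.75 on the young and 1.03 to 1.27 on the aged), and of the cell cycle markers 8 of 9 fell (median -1.06). Of the loop of Henle markers 1 of 7 fell, Bst1, by 1.13 on the log2 scale (limma adjusted p = 0.021). Of the urothelial markers 1 of 5 tested fell (list median change -1.37): Upk3b, a uroplakin, read -1.79, -1.86 and -2.30 at 2 months and -4.26, -3.64 and -3.43 at 20 months (limma adjusted p = 0.013). The urothelial list as a whole was high in 2-month replicate 1 (median level -0.87, against -3.08 and -2.95 in the other 2-month samples). Cd68, a macrophage marker, had no matched probe, and the other B, T, macrophage and adipocyte markers were above background on at least 1 array. Their part in the changes of the region probes was not tested.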

How the data were processed

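Kidney RNA from 6 samples (2 and 20 months, 3 each) was hybridised to 1-colour arrays. Per the file headers, Feature Extraction 11.5.1.1 read the scans (G2505C scanner) on an mm9 grid, and the deposited processed signal is a linear intensity, background-subtracted and detrended per array but not scaled across arrays. A table of log2 values deposited by the authors matched log2 processed signal minus the array's 75th percentile (median difference at most 0.009); it served as an alternative. Normexp (offset 50) ran on the deposited median spot and background intensity, and mean spot signal was not used here.

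Control and outlier-flagged spots were left out, spots of a probe averaged on log2, and each array's 75th percentile subtracted. All 30825 tested probes entered 1 limma 3.58.1 fit (lmFit, eBayes, R 4.3.3) with Benjamini-Hochberg adjustment and a threshold of 0.05; changes are 20 minus 2 months with the moderated SE. F minus R differences had their own fit over 587 intervals. Class values used exact permutation tests. The procedure was tested on simulated data. Array number and the spread between arrays limit the precision, and no probe was saturated. Gene symbols (26762 probes) came from RefSeq, GRCm38.p6, used for names only.

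The region probes, lists and tests were chosen with earlier results of these data known. Named probes were the 10 largest rises and falls among called, non-overlapping probes detected on all 6 arrays (1 fall met this), the largest bounds, intervals with both letters called or a changed difference, the 5 brightest probes, and up to 4 genes per list. The other intervals and probes named, and those with 2 or more calls, were chosen after their values were seen, as were Malat1 and the means per interval and letter. Regions on chromosome 18 were counted and not named. Alternatives covered scaling, background, filter, variance model, array weights, the replicate block and each array left out.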

Additional observations from a re-analysis of the deposited data

Results flagged for a closer look

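At 2 intervals the F and the R probe differed in their change with age by a test of the difference itself. At chr1:87343550-87362900 (mm9) the F minus R difference increased by 2.27 ± 0.19 on the log2 scale (limma adjusted p = 0.00213), and at chr8:128933150-128943375 by 1.51 ± 0.22 (limma adjusted p = 0.0474). The first F probe was well above background on 2 of the 3 young arrays, and neither interval was tested where detection on all 6 arrays was required. Each age had 3 samples, and the difference was larger in 3 of 3 aged samples than in any young sample at both intervals. Both were picked by a test on these same values, so that separation is no further support. Across 15 alternatives the first ranged from 1.67 to 2.35 and passed in 14, and the second ranged from 0.93 to 1.71 and passed in 3. For the first, the mean of a letter's tested probes used the same 1 probe per letter as the main fit. That pass is therefore no separate support.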

How the results depend on the processing

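The 52 called region probes (31 higher, 21 lower) became 118 (41 and 77) under median centring, 80 (47 and 33) with a trended robust prior, 199 (59 and 140) with array weights, 8 (7 and 1) without the filter, 30 with a 2-fold minimum, 26 of 2704 as means per interval and letter, and 24 of 2686 as such means over probes measured at both ages, alternatives added after seeing the data. Leaving out 1 array gave 12 to 557 called probes. The count stayed within 1.5 times the main one, at 37 to 62, under the remaining scalings, normexp (29 higher, 8 lower), the authors' table, outlier spots kept, detection on all 6 arrays and the replicate block. With the replicate number as a block it was 37 (24 higher, 13 lower), and 25 of the 52 calls were lost, 10 rises and 15 falls. The number is the slide column, which detection follows at both ages, but over all tested probes deviations of same-numbered samples correlated at 0.11, -0.13 and 0.20, so the numbers were not taken as pairs. Of the 52 probes, 12 kept their call in each fit with 1 array left out, 26 lost it under normexp, and 0 reversed in any alternative. The count of 2 intervals with both letters called was 0 without the filter, 4 with a trended robust prior, 5 with array weights, 4 with any probe of a letter, and 0 to 15 with 1 array left out. The count of 2 changed F minus R differences was 1 under quantile normalization, normexp, the authors' table, no filter, outlier spots kept, the replicate block and the mean of a letter's probes, 0 with detection on all 6 arrays, and 0 to 36 with 1 array left out (36 without 20-month replicate 1). The 20-month minus 2-month difference in the region minus other median was negative in each alternative, from -0.25 to -0.10. Without the filter it was -0.14, but 0.39 within slide column 3. The unfiltered median change over probes was 0.07 for region and 0.05 for other probes. The region probes' share of calls exceeded that of all probes without 20-month replicate 1 (9.28% against 6.62%). It was lower in the other fits over probes, for example 3.31% against 4.22% with array weights and 0.0494% against 0.196% without the filter. The detection difference ranged from -23.65 to -10.04 points. Dim signal limits most of these values: 5449 of 16181 region probes were not well above background on any array.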

Other observations

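Averaging the tested probes of 1 interval and letter before the fit left 2704 values for the regions, of which 26 (0.962%) passed by limma, 12 higher and 14 lower, in 24 intervals. Of these, 22 lay in intervals that also held a called probe and 15 averaged more than 1 probe. The averaging was chosen after the values were seen. Another F minus R difference came close to the threshold, at chr1:84947500-85045150 (mm9), which overlaps the rising group near 85 Mb of chromosome 1. It read 0.06, 0.08 and 0.58 at 2 months and 1.53, 1.40 and 1.43 at 20 months, an increase of 1.21 ± 0.19 (limma adjusted p = 0.054). It was singled out after its value was seen. No region probe was called on chromosomes 7, 9, 16 or 18, with 291, 192, 199 and 209 tested.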
